A study of Bos grunniens and Bos grunniens x Bos taurus with 6 samples.

Results

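Smooth muscle contractile genes were followed through single-cell libraries of yak testis. The set has 9 genes, ACTA2, MYH11, TAGLN, CNN1, DES, TPM2, TCAP, ACTA1 and RERGL. They were found by symbol among the 26961 features of the deposited count tables, and all 9 had a feature. The identifiers in the files are ENSBGRG00000017216 for ACTA2, ENSBGRG00000024236 for MYH11, ENSBGRG00000025309 for TAGLN, ENSBGRG00000013580 for CNN1, ENSBGRG00000020017 for DES, ENSBGRG00000004079 for TPM2, ENSBGRG00000010880 for TCAP, ENSBGRG00000020862 for ACTA1 and ENSBGRG00000002431 for RERGL. The study compared testis across development with 10x Genomics libraries. Replicates 1 and 2 were prepubertal yak aged 6 months, and replicates 3 and 4 were adolescent yak aged 18 months. The older animals gave 1 library each, a yak aged 4 years and a cattle-yak (a cross of cattle and yak), both past sexual maturity, and the labels give no age for the cattle-yak. In every group the tissue was frozen, thawed, digested with enzymes, filtered and kept in culture before loading, so levels are those of dissociated cells. The labels also tag the cells as germ cells, yet much of each library was somatic, as the class counts below show. The labels do not say that libraries of the same age came from separate animals, and p-values then measure only the spread between these libraries, which may be technical.

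Smooth muscle cells contract when myosin filaments pull on actin filaments. ACTA2 encodes the main actin of vascular smooth muscle and MYH11 its myosin heavy chain. TPM2 encodes a tropomyosin that lies along the actin filament, and CNN1 (calponin) and TAGLN (transgelin) encode actin-binding proteins of the same filament. DES encodes desmin, the intermediate filament of muscle. In the testis these genes are known from the muscular wall of blood vessels and from the peritubular myoid cells that surround the seminiferous tubules. TCAP encodes a protein of the sarcomeric Z-disc and ACTA1 the actin of skeletal muscle, both better known from striated muscle, and RERGL encodes a small RAS-like protein known from vascular smooth muscle. ACTA1 and ACTA2 encode nearly identical proteins, so low ACTA1 counts are uncertain.

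Cell classes were gated on marker genes that exclude the 9 genes, so that the classes could be compared for them. A kept cell entered a class when at least 2 of its markers had a UMI (a counted RNA molecule) and no other class had as many markers. Of 29243 kept cells, 18905 (64.6%) were gated, among them 1297 as mural (the pericytes and smooth muscle cells of vessel walls), 5610 as stroma, 3225 as endothelium and 3665 as lymphocytes. Mural-gated cells numbered 225 and 329 at 6 months, 181 and 142 at 18 months, 96 in the 4-year library and 324 in the cattle-yak library. The library totals ran from 9575446 to 24762829 UMIs, and levels below are counts per 1000000 UMIs (CPM) of the summed class in a library.

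RGS5, a pericyte gene that is itself a marker of the mural gate and so high by the choice of cells, lay between 813 and 1549 CPM in mural-gated cells and between 15.6 and 138 CPM in stroma-gated cells. Markers of stroma were also present: 976 of the 1297 mural-gated cells had a UMI of at least 1 stroma marker, and DCN (decorin) read 805 and 807 CPM at 6 months, 460 and 489 at 18 months, 112 in the 4-year library and 377 in the cattle-yak library. The 12 stroma markers summed to between 447 and 1220 CPM in mural-gated cells and to between 2875 and 6199 CPM in stroma-gated cells. PDGFRA read 10.8 CPM or less and CD3D 4.79 CPM or less in mural-gated cells. The gate cannot separate myoid cells of the tubule from muscle cells of vessels.

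The gated cells were also located in clusters of all kept cells made without the 9 genes and named by the gate markers. Endothelium-gated cells lay in clusters named endothelium for 96.5% or more in every library. Mural-gated cells were spread more widely: clusters named mural (numbers 15 and 16) held 42.2% and 42.9% of them at 6 months, 57.5% and 69.0% at 18 months, with 81.8% for the cattle-yak. Clusters named stroma held 55.6% and 54.4% at 6 months, 38.1% and 19.0% at 18 months, with 3.7% for the cattle-yak. At 4 years 2 of the 96 mural-gated cells lay in mural clusters, while 80.2% lay in clusters named endothelium, most of them in cluster 25. Cluster 25 held 127 kept cells of that library, of which 70 were mural-gated and 26 endothelium-gated. The cluster name, given from the cells of all libraries, thus differs from the gate label at 4 years. Values of that library are those of the gated cells. Stroma-gated cells of 4 years lay for 91.2% in cluster 31, which stayed unnamed.

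Levels of the thin filament and myosin genes were far higher in mural-gated than in stroma-gated cells. ACTA2 read 734 and 660.5 CPM in mural-gated cells at 6 months, 6066 and 3021 at 18 months, 2957 in the 4-year library and 4105 in the cattle-yak library. In stroma-gated cells of the same libraries it read 36.4, 24.4, 213, 118, 1077 and 508 CPM. Mural-gated cells were higher in all 6 libraries, and the ratio was 20.2 to 28.5 in the 4 libraries of 6 and 18 months, but 2.75 in the 4-year library and 8.08 in the cattle-yak library. Across the 6 libraries ACTA2 was higher by 3.94 ± 0.41 (SE) on the log2 scale, with an adjusted p of 2.15e-05 (edgeR quasi-likelihood test with library as a block, Benjamini-Hochberg adjustment over all genes tested). TPM2 ran from 1361 to 6151 CPM (median 4299) in mural-gated cells and from 45.0 to 2933 CPM (median 148) in stroma-gated cells, a log2 difference of 3.83 ± 0.49 with adjusted p = 0.000109 by edgeR. TAGLN ran from 2322 to 13835 CPM (median 9506) against 178 to 5162 CPM (median 650.3), a log2 difference of 3.16 ± 0.32 with adjusted p = 1.81e-05 by edgeR. Both genes were higher in mural-gated cells of every library. CNN1, which inhibits the myosin ATPase on actin, was at most 4.86 CPM in the mural-gated cells of 6 months and had 0 UMIs in the stroma-gated cells of 6 months. It read 566, 21.6, 45.6 and 44.1 CPM in mural-gated cells of 18 months, 4 years and cattle-yak, with a log2 difference from stroma of 3.90 ± 0.56 and adjusted p = 0.000266 by edgeR. At 4 years CNN1 did not stand apart between the classes, with a ratio of 1.12 (95% counting interval 0.396 to 3.40).

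Of the 7 genes tested between these classes, MYH11 had the widest range of ratios between libraries. It read 177 and 99.6 CPM in mural-gated cells at 6 months, 1933 and 460 at 18 months, 584 in the 4-year library and 675 in the cattle-yak library. In stroma-gated cells it read 2.15 and 1.26 CPM at 6 months (8 and 3 UMIs), 102 and 29.6 at 18 months, 995 in the 4-year library and 181 in the cattle-yak library. The mural over stroma ratio was thus 82.4 and 79.1 at 6 months, 19.0 and 15.6 at 18 months, with 3.72 for the cattle-yak, while at 4 years the stroma-gated cells were the higher class, with a ratio of 0.587 (95% counting interval 0.466 to 0.738). Across libraries the log2 difference was 3.40 ± 0.72 with adjusted p = 0.00399 by edgeR, and 4.21 without the library of 4 years.

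DES and TCAP were also higher in mural-gated than in stroma-gated cells. DES read 65.6 and 56.7 CPM in mural-gated cells at 6 months, 680 and 200.1 at 18 months, 464 in the 4-year library and 267 in the cattle-yak library, against 26.7, 26.5, 48.8, 52.9, 244 and 96.6 CPM in stroma-gated cells. The difference was 1.85 ± 0.33 on the log2 scale with adjusted p = 0.00135 by edgeR, and mural-gated cells were higher in 6 of 6 libraries. TCAP read 97.2 and 16.4 CPM in mural-gated cells at 6 months, 526 and 425 at 18 months, 1126 in the 4-year library and 1163 in the cattle-yak library. Stroma-gated cells held 3.36 to 236 CPM (median 19.6), a log2 difference of 3.64 ± 0.32 with adjusted p = 4.95e-06 by edgeR, higher in 6 of 6 libraries. In all, 7 of the 9 genes entered this test, since ACTA1 and RERGL did not pass the filter on low counts, and all 7 were higher in mural-gated cells. Of the 5152 genes tested, 12.1% were called higher in mural-gated cells and 13.3% lower. Over the same genes, 11% were higher in mural-gated cells of every library by CPM. The median log2 difference was 3.64 over the 7 genes and -0.04 over all genes tested. Without the library block, 2 of the 7 were called. Without the library of 4 years 6 genes were tested and 6 called higher. With mural-gated cells outside the mural clusters left out, which drops the library of 4 years, 6 genes could be tested and all 6 were called higher, with ACTA2 higher by 5.12 on the log2 scale.

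RERGL, which the low-count filter kept out of the class test, had most of its counts in mural-gated cells. It read 4.86 and 1.26 CPM in mural-gated cells at 6 months (3 UMIs in all), 290.2 and 227 at 18 months, 112 in the 4-year library and 221 in the cattle-yak library. Stroma-gated cells held at most 7.07 CPM, endothelium-gated cells at most 5.30 CPM and lymphocytes at most 3.36 CPM. The ratio of mural over stroma was 211 (95% counting interval 57.5 to 1759) in replicate 3 and 31.3 (14.2 to 86.2) in the cattle-yak. Mural-gated cells held 89.9% and 73.7% of all RERGL UMIs at 18 months, 71.1% in the 4-year library and 74.8% in the cattle-yak library. ACTA1 had 0 UMIs in the mural-gated cells of 6 months, where a floor of 3 counts equals 7.29 CPM in replicate 1 and 3.78 CPM in replicate 2. It read 19.8 and 21.6 CPM at 18 months, 199 in the 4-year library and 44.1 in the cattle-yak library. At 4 years its 48 UMIs lay in 6 cells, and 1 cell held 37 of them. The ACTA1 level of that library therefore rests on a single cell.

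**Figure D1:**
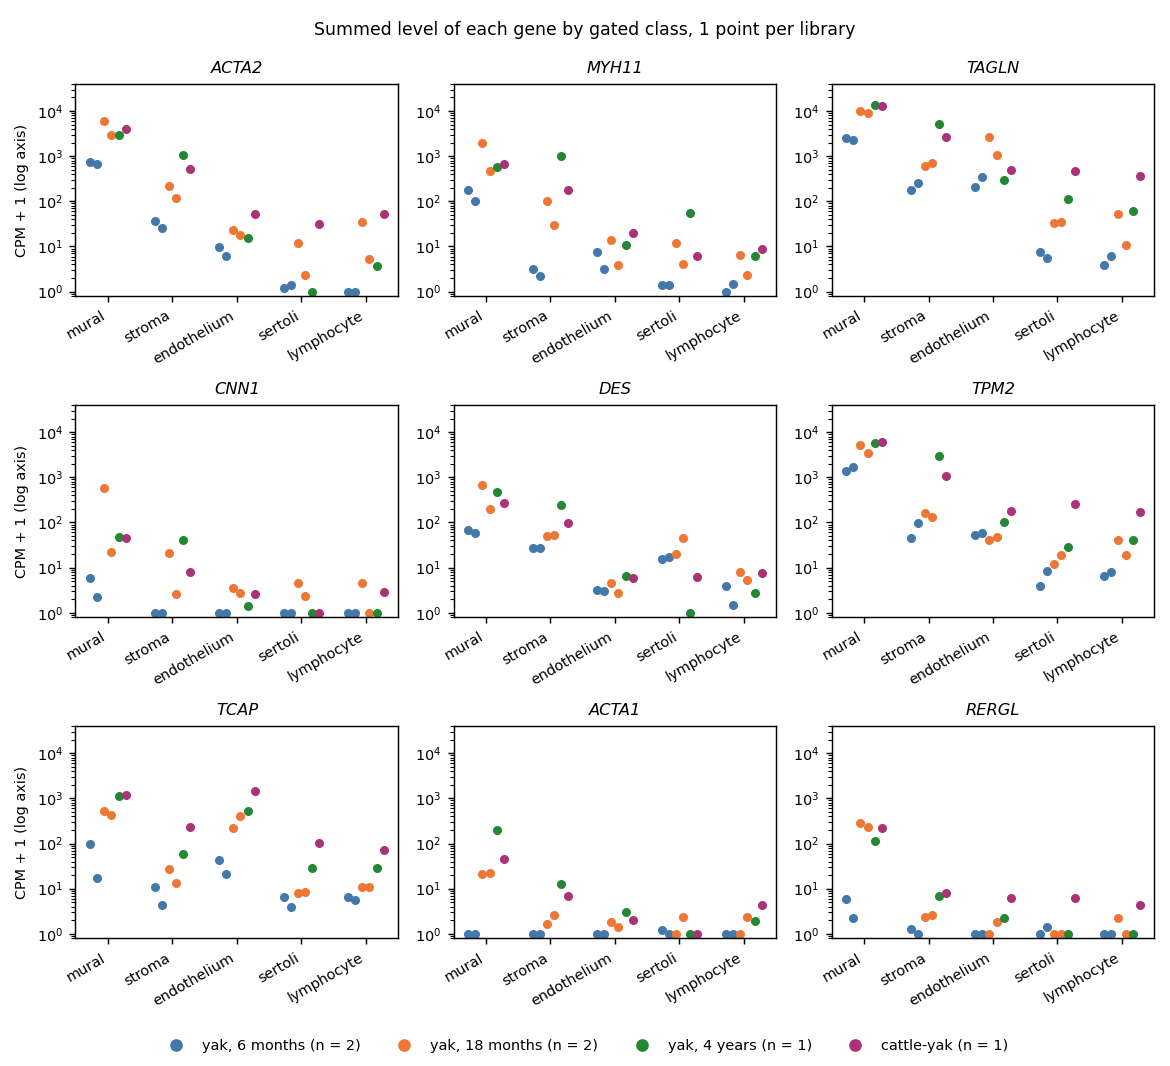
Summed level of each of the 9 genes (vertical axis, CPM plus 1, log scale) in 5 gated classes, with 1 point per library coloured by group. ACTA2 and TPM2 stand highest in mural-gated cells, TCAP is about as high in endothelium-gated cells, and RERGL stays at or below 7.07 CPM in the other 4 classes.

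Endothelium-gated cells, which line vessels and are not contractile, had little of 4 of these genes and much of 2 others. ACTA2 read 5.25 to 51.9 CPM there, MYH11 at most 18.5, DES 1.68 to 5.42 and TPM2 39.4 to 176 CPM. Lymphocyte-gated cells, which should lack them, gave 0 to 52.3 CPM for ACTA2 and 5.65 to 166 CPM for TPM2, ranges that overlap those of endothelium. Within a library, endothelium stood above lymphocytes at 6 months for TPM2 (51.9 and 56.7 against 5.65 and 7.08 CPM) and at 4 years for TPM2 (98.8 against 40.4 CPM) and ACTA2 (14.2 against 2.63 CPM). In replicate 3 and the cattle-yak the ACTA2 level of endothelium (22.3 and 51.9 CPM) was at or below that of lymphocytes (34.0 and 52.3 CPM). TPM2 read 39.4 against 40.5 CPM in replicate 3, 47.4 against 18.1 in replicate 4 and 176 against 166 in the cattle-yak, endothelium first. The mural-gated cells were higher than endothelium by 7.45 ± 0.25 (log2, SE) for ACTA2, 6.35 ± 0.30 for MYH11, 6.70 ± 0.28 for DES and 5.87 ± 0.28 for TPM2, and the adjusted p by edgeR was 3.67e-10 for ACTA2 and 5.14e-09 or less for MYH11, DES and TPM2. CNN1, ACTA1 and RERGL did not pass the low-count filter in this comparison. The 6 genes tested were all called higher in mural-gated cells, against 17.2% of the 5883 genes tested. Of those, 10.3% were higher in every library by CPM. Without the library of 4 years, 5 of the 6 were called. The median log2 difference was 6.11 over the 6 genes and 0.03 over all genes tested.

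TAGLN and TCAP were the exceptions in endothelium. TAGLN read 209 and 346 CPM in endothelium-gated cells at 6 months, 2696 and 1040 at 18 months, 303 in the 4-year library and 495 in the cattle-yak library. In lymphocytes it read 2.82, 5.06, 51.3, 9.75, 61.4 and 355 CPM in the same order, so the class levels lay nearest to each other in the cattle-yak. At 18 months a TAGLN UMI was found in 87.4% and 69.6% of endothelium-gated cells, and in 74.0% and 49.0% after each cell was thinned to 1000 UMIs. In lymphocytes the thinned shares were 3.99% and 0.394%. Median depth at 18 months was 4074 and 3078 UMIs in endothelium-gated cells and 3005 and 2545 in lymphocytes. Mural-gated cells were still higher in TAGLN in 6 of 6 libraries, by 3.79 ± 0.40 on the log2 scale (adjusted p = 4.48e-06 by edgeR), with the lowest ratio, 3.74, in replicate 3.

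TCAP in endothelium was of the order of the mural level. It read 42.2 and 19.9 CPM in endothelium-gated cells at 6 months, 225 and 412 at 18 months, 534 in the 4-year library and 1422 in the cattle-yak library, against 4.55 to 72.0 CPM in lymphocytes. Mural-gated cells were higher in 4 of 6 libraries, with ratios of 2.30, 2.34, 1.03 and 2.11 in replicates 1, 3, 4 and at 4 years. The ratio was 0.822 (95% counting interval 0.373 to 1.75) in replicate 2 and 0.817 (0.763 to 0.875) in the cattle-yak. The log2 difference of 0.73 ± 0.22 had an adjusted p of 0.0204 by edgeR, and this call was lost in 7 of 18 alternatives. The adjusted p by edgeR was 0.0721 with library totals in place of TMM (trimmed mean of M-values) scaling, 0.0578 without replicate 1, 0.0860 without replicate 3 and 0.0891 without the library of 4 years. It was 0.783 without the library block, 0.11 with a gate of at least 3 markers and 0.0617 without PPP1R14A among the markers. Endothelium, the larger class, held 59.6% and 69.8% of all TCAP UMIs at 18 months, 63.5% in the 4-year library and 57.0% in the cattle-yak library. Endothelium-gated cells likewise held 54.1% and 33.5% of TAGLN UMIs at 18 months, against 30.9% and 44.6% in mural-gated cells. Mural-gated cells held 52.3% to 82.3% of ACTA2 UMIs across the 6 libraries.

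**Figure D2:**
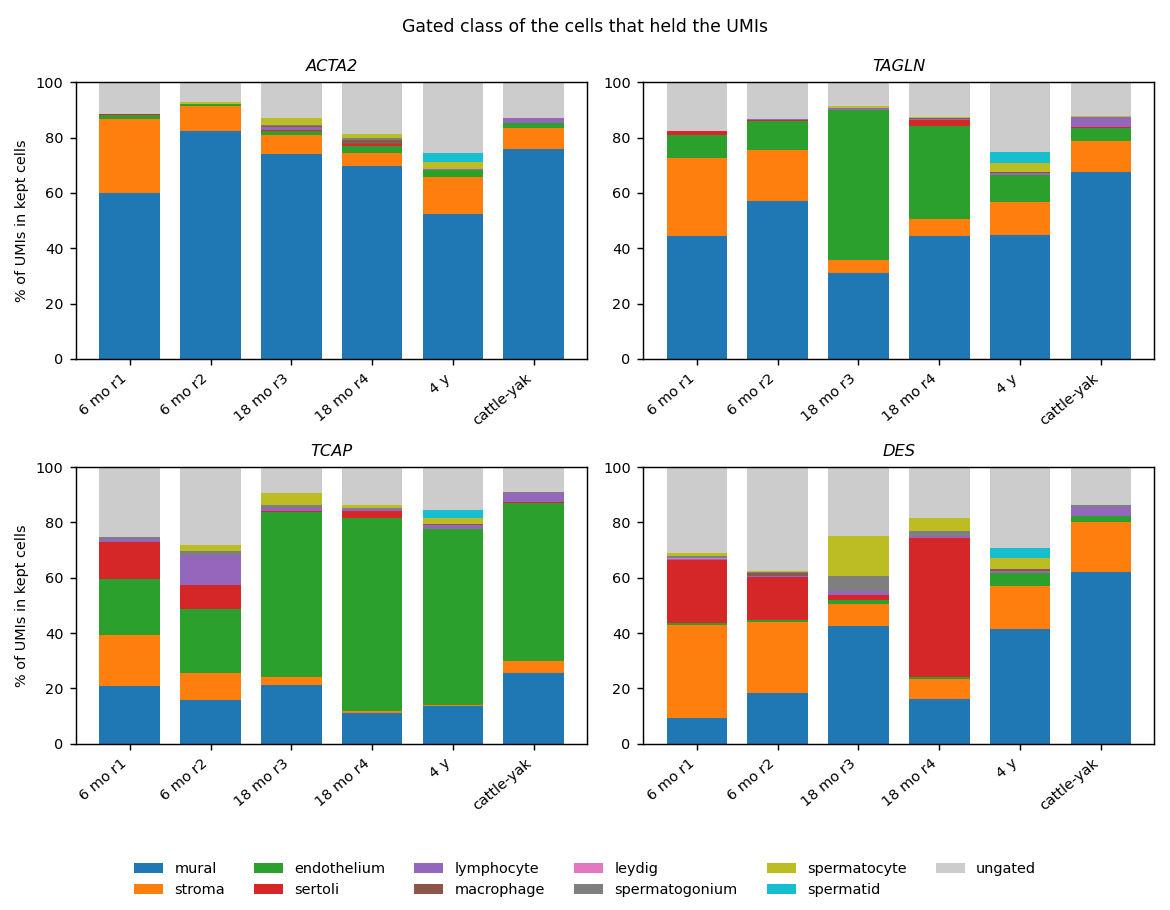
Stacked bars give the percent of all UMIs of ACTA2, TAGLN, TCAP and DES in kept cells (vertical axis, 0 to 100%) that lay in each gated class, for each of the 6 libraries. Mural-gated cells hold 52.3% or more of ACTA2 in every library, whereas endothelium holds 57.0% or more of TCAP in the 4 older libraries and Sertoli cells hold 50.1% of DES in replicate 4 of 18 months.

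Genes of the set had UMIs outside vessels and stroma too, among them DES, CNN1 and ACTA1. Sertoli cells, the supporting cells of the tubule, held 22.9% and 15.5% of DES UMIs at 6 months and 50.1% in replicate 4 of 18 months. The DES level there was 14.2, 16.2, 19.2 and 43.2 CPM in the 4 libraries of 6 and 18 months, each above the lymphocytes of the same library (0.506 to 7.15 CPM). Both 6-month levels were below the mean of all kept cells at that age, which was 17.7 CPM for DES. Sertoli cells of replicate 3 held 1.80% of its DES UMIs, and 832817 of its 17300322 UMIs of all genes. Those of replicate 4 held 5343539 of 14304184 UMIs. Among these 4 libraries, the Sertoli share of DES UMIs thus exceeded the share of all UMIs in replicate 4 only. In replicate 4 the 231 DES UMIs were spread over 171 Sertoli cells. CNN1 in replicate 3 of 18 months was found in spermatocytes, the cells in meiosis, at 43.7 CPM, with 204 UMIs in 104 of 211 cells and 28.3% of that library's CNN1 UMIs. Over all kept cells of replicate 3 CNN1 read 41.7 CPM, near the spermatocyte level. These spermatocytes held 4664056 of the 17300322 UMIs of all genes in that library's kept cells. Those spermatocytes had a median of 18826 UMIs a cell, and after thinning to 1000 UMIs 4.00% of them had a CNN1 UMI. Spermatocytes of replicate 4 had 0 CNN1 UMIs. The same replicate 3 held 27 ACTA1 UMIs in 24 spermatocytes, 39.1% of its ACTA1 UMIs. Its spermatocytes also held 603 TPM2, 115 ACTA2 and 111 MYH11 UMIs, which were 12.2%, 2.53% and 6.95% of that library's UMIs of these genes.

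Age was compared in mural-gated cells between 18 and 6 months, the ages with 2 libraries each. The test could be fitted for 8 of the 9 genes, and 7 were higher at 18 months. The ages differ in the clusters that hold the gated cells: cluster 15 held 35.1% and 41.6% of mural-gated cells at 6 months and 13.3% and 38.7% at 18 months, cluster 16 held 7.11% and 1.22% at 6 months but 44.2% and 30.3% at 18 months, and clusters named stroma held more of the 6-month cells (above). With mural-gated cells outside the mural clusters left out, 1 of the 8 genes stayed called, RERGL (adjusted p = 0.0211 by edgeR). There ACTA2 read 1554 and 1166 CPM in the younger libraries against 8197 and 4791 CPM in the older (adjusted p = 0.0994 by edgeR), and TAGLN was higher by 1.58 on the log2 scale (adjusted p = 0.129 by edgeR). Of all 4210 genes tested, 1.02% were called higher at 18 months and 32.5% had both libraries of 18 months above both of 6 months. The largest shifts were in RERGL and CNN1, which had 3 UMIs each over both 6-month libraries. RERGL rose from 4.86 and 1.26 CPM to 290.2 and 227 CPM, a ratio of summed counts of 106 (95% counting interval 36.0 to 520), with adjusted p = 0.000609 by edgeR. CNN1 rose from 4.86 and 1.26 CPM to 566 and 21.6 CPM, a ratio of 140 (47.4 to 682) with adjusted p = 0.0203 by edgeR, and the 2 libraries of 18 months themselves differed widely. In replicate 3 the 314 CNN1 UMIs lay in 63 cells, in replicate 4 the 8 UMIs lay in 6 cells. ACTA1, at 0 UMIs in both libraries of 6 months, was at least 8.25-fold higher at 18 months against a floor of 3 counts over the group.

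The main filament genes rose by less. On the log2 scale and after TMM scaling, ACTA2 was higher at 18 months by 2.47 ± 0.46 (SE; adjusted p = 0.0184 by edgeR), MYH11 by 2.88 ± 0.63 (0.0413), TAGLN by 1.75 ± 0.38 (0.0378), DES by 2.61 ± 0.58 (0.0413) and TCAP by 2.91 ± 0.66 (0.0437). TPM2 differed by 1.27 ± 0.42 with adjusted p = 0.195 by edgeR and did not pass, although 5167 and 3432 CPM at 18 months lay above 1361 and 1683 CPM at 6 months. The median log2 difference was 2.75 over the 8 genes and 0.03 over all genes tested, and ratios of CPM are 0.25 higher on the log2 scale than the TMM values. Few libraries carry these calls: leaving out replicate 1 of 6 months ended all 7 calls (0 genes called over the whole table by edgeR, 333 at an unadjusted p below 0.05), leaving out replicate 2 left 2 of the genes called, and leaving out replicate 3 or 4 left 6 or 8. With library totals 3 genes were called, with at least 3 markers for the gate 3, without PPP1R14A among the markers 5, and 4 once mural-gated cells with a stroma marker were left out.

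Other measures moved with age in the same cells. Median depth of mural-gated cells was 1602 and 2105 UMIs at 6 months and 2625 and 2152 at 18 months, and their median mitochondrial share was 6.50% and 6.92% against 15.0% and 12.0%. DCN was lower at 18 months (above), the stroma marker sum was 1206 and 1220 CPM against 1120 and 803 CPM, and RGS5 was 1145 and 1137 CPM against 813 and 952 CPM. The part of these measures in the age difference was not tested. A higher level of RNA per cell and a higher share of muscle cells within the gate cannot be told apart from summed counts. Shares of cells with a UMI were also counted. They cannot separate these either, since a higher level per cell also raises the share of cells with a UMI. A TAGLN UMI was found in 49.8% and 58.1% of mural-gated cells at 6 months and in 74.6% and 84.5% at 18 months. For ACTA2 the shares were 20.4% and 30.7% against 58.0% and 67.6%. After thinning to 1000 UMIs the ACTA2 shares were 17.1% and 21.0% against 59.3% and 66.9%, leaving out 14 to 32 shallower cells a library.

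**Figure D3:**
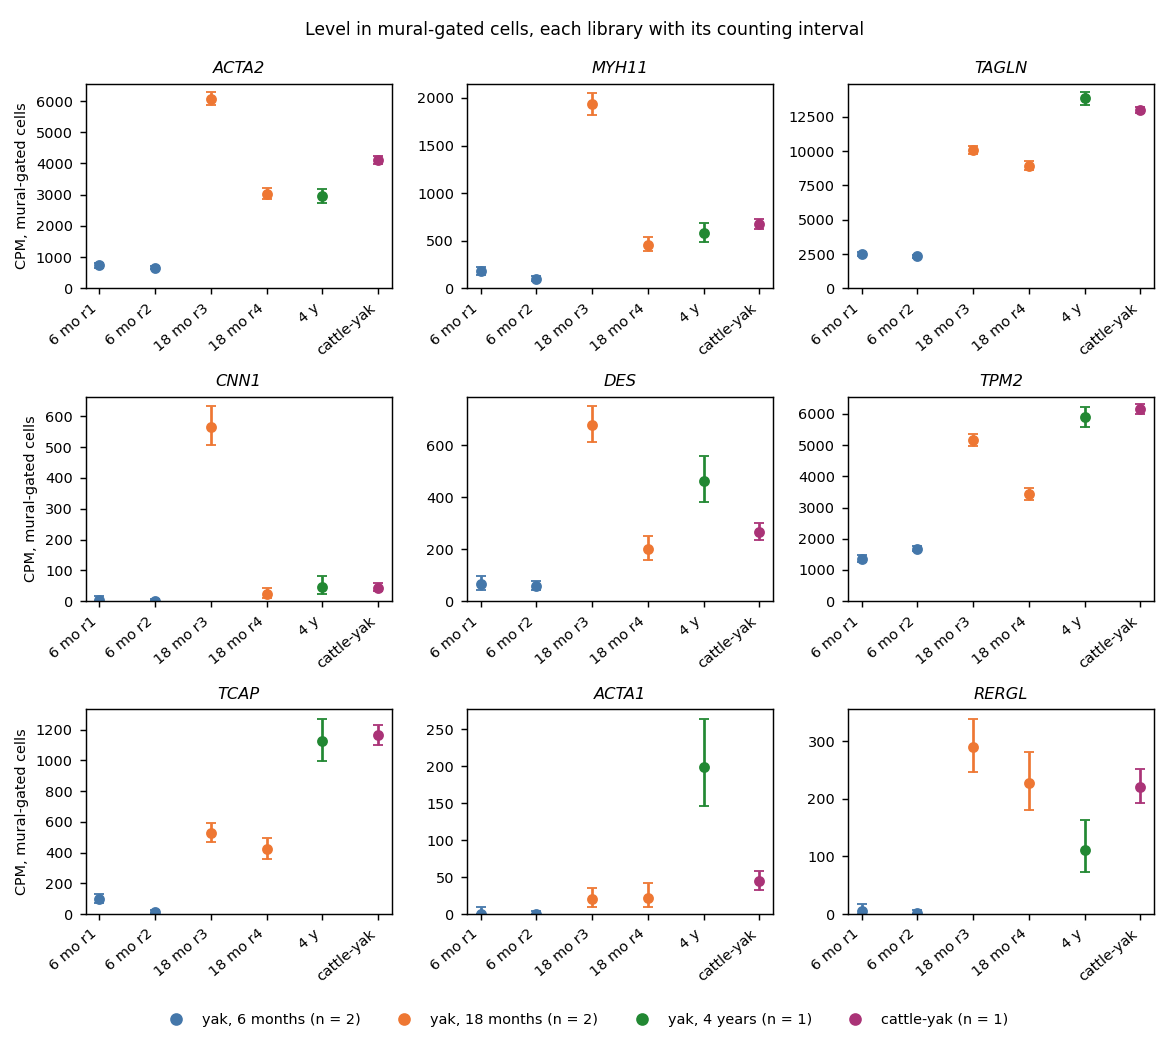
Level of each of the 9 genes in mural-gated cells (vertical axis, CPM, linear from 0), 1 point for each library with its 95% exact Poisson interval, which covers counting error only. Both libraries of 6 months lie below the other 4 for each gene, and CNN1 stands out in replicate 3 of 18 months at 566 CPM.

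Stroma-gated cells also differed with age in ACTA2 and MYH11, although the ages lay in different clusters. Clusters 3, 5, 6 and 7 held most stroma-gated cells of 6 months, cluster 8 held 90.1% of replicate 3 and cluster 4 held 64.6% of replicate 4. The part of this in the age difference was not tested. ACTA2 was higher at 18 months by 1.99 ± 0.38 on the log2 scale (adjusted p = 0.0136 by edgeR) and MYH11 by 4.72 ± 0.56 (adjusted p = 0.000716 by edgeR), both with the 2 libraries of 18 months above those of 6 months. Of the 8093 genes tested in stroma, 2.08% were called higher and 42.7% had both libraries of 18 months above both of 6 months. The call for ACTA2 was lost without either library of 6 months (adjusted p = 0.254 and 0.526 by edgeR), whereas that for MYH11 held in each of those fits. TAGLN (1.20 ± 0.48, adjusted p = 0.264), DES (0.50 ± 0.35, 0.498), TPM2 (0.64 ± 0.43, 0.479) and TCAP (1.13 ± 0.51, 0.315) did not pass by edgeR. CNN1 went from 0 UMIs to 30 UMIs, of which 29 lay in replicate 3 and 1 in replicate 4. The summed counts were 29.0-fold above a floor of 3 counts over the 6-month libraries, but this ratio rests on replicate 3.

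Whether the mural over stroma difference itself changed with age was tested as an interaction. It became smaller for MYH11, by -1.94 ± 0.47 on the log2 scale (adjusted p = 0.0484 by edgeR), and larger for DES, by 2.14 ± 0.44 (adjusted p = 0.0169 by edgeR). The MYH11 ratio fell from 82.4 and 79.1 to 19.0 and 15.6, and the DES ratio went from 2.46 and 2.14 to 13.9 and 3.78. Of 6439 genes tested, 0.761% were called in either direction. TCAP (1.61 ± 0.43, adjusted p = 0.0803), ACTA2 (0.36 ± 0.33, 0.814), TAGLN (0.48 ± 0.34, 0.718) and TPM2 (0.45 ± 0.34, 0.749) did not pass by edgeR. The DES call was lost without replicate 3 (log2 0.73, adjusted p = 0.594 by edgeR), and the MYH11 call without replicate 1, 2 or 3 (adjusted p = 0.768, 0.285 and 0.115 by edgeR). DESeq2 called neither gene.

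Endothelium was compared between 18 and 6 months as well, a test chosen after the high TAGLN and TCAP levels there had been seen. TCAP was higher at 18 months by 3.31 ± 0.52 on the log2 scale (adjusted p = 0.00509 by edgeR) and TAGLN by 2.55 ± 0.52 (adjusted p = 0.0353 by edgeR), with both libraries of 18 months above both of 6 months. Of 7489 genes tested, 0.294% were called higher and 18% had that order of libraries. ACTA2, MYH11 and TPM2 did not pass (adjusted p = 0.653, 0.999 and 0.999 by edgeR), and TPM2 lay lower at 18 months by 0.42 ± 0.38. Without replicate 1 the TAGLN call was lost (adjusted p = 0.881 by edgeR), and without replicate 2 both were (adjusted p = 0.268 for TAGLN and 0.0989 for TCAP by edgeR). Both were also lost without the filter on low counts (adjusted p = 0.874 for each by edgeR).

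In sums over all kept cells of a library, RERGL alone passed between the ages, by 4.27 ± 0.57 on the log2 scale (adjusted p = 0.0353 by edgeR), where 1.86% of 13553 genes were called higher and 64.8% had both libraries of 18 months above both of 6 months. In such bulk-like sums, more cells of a type and more RNA per cell cannot be told apart. These sums carry a TMM scaling shift of 1.03 on the log2 scale, so that 7 of the 9 genes were called with library totals. On simulated data the test of these sums called 0% of 2-fold and 14.8% of 4-fold changes, and 12.2% of its calls were false. The lack of a call for the other genes therefore does not show that they were unchanged.

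The yak of 4 years and the cattle-yak had 1 library each, so their values have no replicate check and no test. The gated cells of these libraries lay in different clusters: of mural-gated cells, cluster 25 held 72.9% at 4 years, and clusters 16 and 15 held 49.4% and 32.4% in the cattle-yak. Of stroma-gated cells, cluster 31 held 91.2% at 4 years and cluster 10 held 88.7% in the cattle-yak. In mural-gated cells the cattle-yak over 4-year ratio was near 1 for TPM2 (1.04, 95% counting interval 0.985 to 1.11), TCAP (1.03, 0.904 to 1.18), TAGLN (0.940, 0.905 to 0.976), CNN1 (0.967, 0.493 to 2.07) and MYH11 (1.16, 0.964 to 1.40). ACTA2 was 1.39-fold (lower bound 1.28) and RERGL 1.98-fold (1.33 to 3.07) as high in the cattle-yak, and DES 0.576-fold (0.461 to 0.724). The ACTA1 ratio of 0.222 (0.145 to 0.339) rests on the single cell named above. In stroma-gated cells the cattle-yak was lower in ACTA2 (0.472-fold, 0.396 to 0.563), MYH11 (0.182-fold, 0.146 to 0.228), TAGLN (0.504-fold, 0.466 to 0.545) and TPM2 (0.368-fold, 0.330 to 0.411), and higher in TCAP (4.05-fold, 2.16 to 8.57). The stroma-gated cells of 4 years were 114 cells, of which 44.2% had at least 3 of the 9 genes after thinning to 1000 UMIs (86 cells). In the stroma-gated cells of the other 5 libraries that share was 0.319% to 16.5%. Germ-cell RNA was also seen in the library of 4 years: spermatid markers summed to 861 CPM in its mural-gated cells and to 13.5 CPM or less in those of the other libraries.

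Within the mural gate, cells were mixed. After thinning to 1000 UMIs, the median mural-gated cell had a UMI of 1 of the 9 genes in each library of 6 months, 4 and 3 at 18 months, 4 in the 4-year library and 4 in the cattle-yak library. The share of mural-gated cells with none of the 9 was 47.7% and 40.0% at 6 months, 21.0% and 12.6% at 18 months, 3.61% in the 4-year library and 2.05% in the cattle-yak library. Lymphocytes had at least 3 of the 9 in 0% to 1.55% of cells. RERGL UMIs in the cattle-yak lay in 108 of 324 mural-gated cells, 33.3%, and 25 of those cells held 50% of the counts. TCAP was more concentrated, with 15 cells holding 50% of 1214 UMIs in the cattle-yak and 3 cells holding 50% of 272 UMIs at 4 years.

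Mural-gated cells were split by RGS5, a regulator of G-protein signalling known from pericytes, into 922 cells with a UMI and 375 without. RGS5 is itself a gate marker, so cells without it had passed the gate on other markers. At 6 months 8 of 82 and 8 of 63 RGS5-negative cells lay in mural clusters, against 87 of 143 and 133 of 266 RGS5-positive cells. At 18 months the numbers were 37 of 68 and 18 of 48 against 67 of 113 and 80 of 94. They were 1 of 43 against 1 of 53 at 4 years and 43 of 71 against 222 of 253 in the cattle-yak. The part of this in the split was not tested. Over the 6 libraries, no call was made among the 7 genes tested by edgeR (0 called at adjusted p below 0.05, 308 of 1584 genes at an unadjusted p below 0.05, and 0 of the 9 by DESeq2), while 5.43% of genes were called in either direction. DES came nearest, lower in RGS5-positive cells by -1.08 ± 0.30 on the log2 scale (adjusted p = 0.0593 by edgeR) and lower in 5 of 6 libraries. At 6 months RGS5-positive cells were higher in ACTA2, with 983 against 205 CPM in replicate 1 and 758 against 109 CPM in replicate 2. At 4 years and in the cattle-yak they were lower, with 2122 against 4418 CPM and 3970 against 4930 CPM. TAGLN had the same order: 3292 against 828 and 2564 against 949 CPM at 6 months, 8369 against 23399 CPM at 4 years and 11958 against 19439 CPM in the cattle-yak. At 18 months the 2 libraries went in opposite directions, with 8359 against 13405 CPM in replicate 3 and 9503 against 7622 CPM in replicate 4. The difference between ages was not tested.

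RERGL, in contrast to DES, was higher in RGS5-positive cells of the 4 older libraries, with 333 against 206, 302 against 53.7, 143 against 56.9 and 227 against 185 CPM (log2 0.90 ± 0.36, adjusted p = 0.182 by edgeR). Stroma markers differed between the sides: DCN read 701 against 1026 and 798 against 857 CPM at 6 months, but 615 against 159, 600.5 against 233, 143 against 56.9 and 406 against 199 CPM in the 4 older libraries, RGS5-positive cells first. Their part in the split was not tested. With at least 3 markers for the gate, 2 libraries had at least 20 cells on both sides (replicate 3 and the cattle-yak). In that fit 4 genes were lower in RGS5-positive cells by edgeR: TAGLN (-0.87, adjusted p = 0.00172), CNN1 (-1.59, 0.0359), DES (-1.88, 0.000797) and TCAP (-1.66, 0.000481). Of all 2559 genes tested there, 17 were called lower and 11 higher. With only these 2 libraries, the p-values lean on a spread shared across genes.

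**Figure D4:**
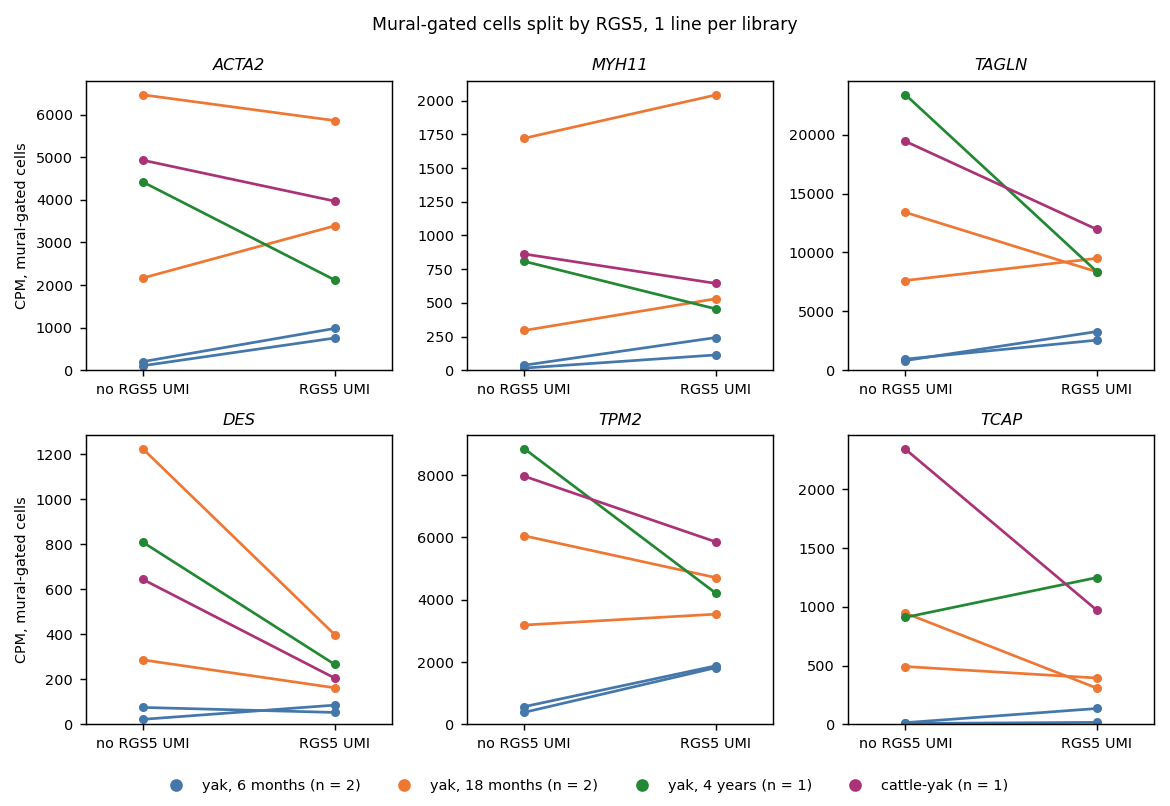
Level of 6 of the genes (vertical axis, CPM, linear from 0) in mural-gated cells without and with an RGS5 UMI, 1 line per library coloured by group. For ACTA2, TAGLN and TPM2 the lines of 6 months climb towards RGS5-positive cells, and those of 4 years and the cattle-yak descend. Most RGS5-negative cells of 6 months lay outside the mural clusters.

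Further genes of the contractile machinery were read from 7 lists. Of the thin filament list, 5 of 11 symbols were in the files, 4 were tested between mural and stroma and 3 were higher: ACTG2, the enteric smooth muscle actin (3.13 ± 0.41 on the log2 scale, adjusted p = 0.000152 by edgeR), LMOD1, a leiomodin that nucleates actin filaments (2.09 ± 0.34, 0.000684), and ACTB (0.93 ± 0.18, 0.00216). ACTG2 is a close copy of ACTA2 and shares its uncertainty. Of the list of myosin, its kinase and phosphatase, 7 of 10 tested were higher and 1 lower, led by the light chain MYL9 (2.1 ± 0.31, adjusted p = 0.000313 by edgeR). Of the linkers of dense plaques, 10 of 14 tested were higher and 0 lower by edgeR, led by filamin A, FLNA (1.66 ± 0.25, adjusted p = 0.000412). Of all 5152 genes tested against stroma, 12.1% were called higher and 13.3% lower. Against endothelium these lists, in the same order, had 3 of 4, 5 of 10 and 11 of 14 genes higher, and 0, 2 and 1 lower. There 17.2% of all 5883 genes tested were called higher, and 1002 of them were called lower.

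Of the remaining lists, fewer genes could be tested. Of 10 regulators of transcription, 2 could be tested against stroma: MEF2C, a factor of muscle genes, was higher (2.12 ± 0.17 on the log2 scale, adjusted p = 2.76e-06 by edgeR) and KLF4 lower (-0.95 ± 0.17, adjusted p = 0.00112 by edgeR). Against endothelium 3 regulators were tested, with 0 higher and 2 lower in mural-gated cells, where 1002 of all 5883 genes tested were called lower. Of calcium handling genes 1 of 3 tested was higher against stroma, the ryanodine receptor RYR2 (1.53 ± 0.47, adjusted p = 0.0315 by edgeR). Against endothelium 3 of 3 tested were higher. Among the receptors, the endothelin receptor EDNRA was lower in mural-gated than in stroma-gated cells (-1.68 ± 0.26, adjusted p = 0.000412 by edgeR). Of the striated muscle list 1 was tested against stroma, TNNT2, and it was lower (-1.39 ± 0.35, adjusted p = 0.0108 by edgeR). Between 18 and 6 months, LMOD1 (2.75 ± 0.61, adjusted p = 0.0413 by edgeR) and FLNA (2.88 ± 0.68, adjusted p = 0.0498 by edgeR) were the genes of these lists that rose in mural-gated cells, out of 34 tested. Of all 4210 genes tested there, 1.02% were called higher at 18 months.

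The genes whose pattern was most like that of the 9 were sought over 46 sums of a library and a class with at least 20 cells, by the mean Pearson correlation of log2(CPM + 10) with the 9 genes, among 4075 genes that were no gate markers. LMOD1 came first with a mean of 0.809, followed by ACTG2 (0.798), CCN3, a matricellular protein (0.775), ASPN, asporin of the extracellular matrix (0.767) and NEXN, nexilin, which binds actin (0.752). These are descriptions: sums of the same library share its depth and its free RNA. Among the 9 genes themselves, the mean correlation with the other 8 was highest for ACTA2 (0.784) and lowest for TCAP (0.576).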

How the data were processed

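The deposited matrices hold raw UMI counts per gene and barcode, not normalised by the authors. The file headers name Cell Ranger 5.0.0, whereas the submitters' processing notes name version 2.1.1; for the genome build, no source used here gives a name. No barcode had fewer than 500 UMIs. Kept cells had 300 genes or more and a mitochondrial share of 20% or less, and doublets were removed by rank of the Scrublet score (0.8% per 1000 barcodes). The threshold of 2 markers gave the classes; 16 of 19 mural and 12 of 12 stroma markers were in the files. Clusters came from scanpy without the 9 genes (2000 variable genes, Leiden resolution 2, libraries not integrated). Counts were summed per library and class (at least 20 cells) and tested with edgeR 4.0.16 in R 4.3.3 (TMM, filterByExpr, quasi-likelihood, Benjamini-Hochberg over all genes tested, threshold 0.05). Comparisons of classes had the library as a block, since both classes come from the same library. DESeq2 1.42.0 was an alternative. Counting intervals are 95% Poisson (levels) or exact binomial (ratios) and cover counting error only; UMIs limit amplification error. The floor is 3 counts. Recovery was tested on simulated data: 63.6% of 4-fold and 5.97% of 2-fold changes were called between ages in mural-gated cells (3806 genes), and 100% and 82.1% between mural and stroma (4931 genes).

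Members and lists were chosen with earlier results of these data known. All 9 genes were named in each comparison, and of each further list at most 4 called genes by largest log2 difference. Replicates were distinct libraries: the chi-square between their counts, divided by its degrees of freedom, was 50.5 at 6 months and 179.6 at 18 months, and libraries shared 5 to 16 barcodes. One gene of the receptor list is not reported here.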

Additional observations from a re-analysis of the deposited data

Results flagged for a closer look

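A pair of interactions stood out in the test of whether the mural minus stroma difference changed between 6 and 18 months: MYH11, with a log2 change of -1.944, and DES, with 2.136. Both were past the threshold by edgeR, and neither was called by DESeq2.

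At 4 years the MYH11 ratio of mural over stroma was 0.587, below 1, whereas it was above 1 in all 5 other libraries; the difference was not tested. The TCAP ratio of mural over endothelium was 0.817 in the cattle-yak, and above 1 at 18 months and at 4 years, again not tested.

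The ratio of RGS5-positive over RGS5-negative mural-gated cells was above 1 in both libraries of 6 months for ACTA2, MYH11, TAGLN, TPM2 and TCAP, and below 1 in both or the only library of some older groups. It was not below 1 in all of them: MYH11 was at 1.19 and 1.80 in replicates 3 and 4, ACTA2 at 1.56, TAGLN at 1.25 and TPM2 at 1.11 in replicate 4, and TCAP at 1.37 at 4 years. For ACTA2 it was 0.805 in the cattle-yak and 0.48 at 4 years. For MYH11 it was 0.747 and 0.563 in the same order, for TAGLN 0.615 and 0.358, and for TPM2 0.735 and 0.476. For TCAP it was 0.326 and 0.802 in replicates 3 and 4 of 18 months and 0.415 in the cattle-yak. None of these differences between groups was tested. Most RGS5-negative cells of 6 months lay outside the mural clusters (above).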

How the results depend on the processing

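Between mural and stroma every call of the 7 genes was kept in direction; the 7 stayed called by DESeq2, without TMM, without the low-count filter, with a gate of 3 markers and with mitochondrial shares up to 40%. The class comparisons pair both classes of 1 library. Without this pairing (no replicate block), edgeR called 2 of the 7 genes between mural and stroma and 411 genes in all (main 1304), 1339 genes between mural and endothelium (main 2012), 0 of the 9 and 0 genes in all for the interaction (166 at an unadjusted p below 0.05; DESeq2 2) and 3 genes for RGS5 (main 86). No paired analysis was possible between ages because the labels link no libraries across ages.

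Counts of all genes called moved as follows. Age in mural-gated cells (main 57): 115 with doublets kept, 35 with a gate of 3 markers, 26 with library totals, 96 with mitochondrial shares up to 40%, 200 without the filter, 8 without cells holding a stroma marker and 19 without PPP1R14A, the last 2 chosen after seeing the data. Age in stroma (204): 128 by DESeq2 and 558 without the filter. Age in endothelium (29): 19 by DESeq2, 54 with doublets kept, 52 with library totals and 0 without the filter (560 at an unadjusted p below 0.05), where 0 of the 9 were called. Age in whole libraries (349): 1231 by DESeq2, 3043 with library totals and 2206 without the filter, with 4, 7 and 5 of the 9 called. Interaction (49): 2 by DESeq2 with 0 of the 9, 16 with a gate of 3 markers, 93 with mitochondrial shares up to 40% and 31 without PPP1R14A, and 1 of the 9 with the gate of 3, without the filter or without cells holding a stroma marker. RGS5 (86): 49 by DESeq2, 28 with the gate of 3, 286 without the filter and 38 without PPP1R14A, each of the settings after DESeq2 with 4 of the 9 called, and 1 of the 9 with doublets kept or an RGS5 threshold of 3 UMIs. Mural against stroma: 1991 with clusters made without the 9 genes, which left out the library of 4 years, and 335 without cells holding a stroma marker. Mural against endothelium: 3117 without the filter and 1010 without those cells. Of the 9, 3 were called between ages in mural-gated cells with the gate of 3 or with library totals, and 4 without cells holding a stroma marker. With mural-gated cells in mural clusters only, also chosen after seeing the data, 6 genes in all (294 at an unadjusted p below 0.05 by edgeR) and 1 of the 9 were called between ages in mural-gated cells.

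Leaving out each library in turn gave 0 to 558 genes called between ages in mural-gated cells, 83 to 968 in stroma, 58 to 463 in endothelium, 0 to 2401 in whole libraries, 7 to 343 for the interaction and 41 to 70 for RGS5. Of the 9 genes it gave 0 to 8 in mural-gated cells, 1 to 3 in stroma, 0 to 2 in endothelium, 0 to 4 in whole libraries, 0 to 6 for the interaction and 0 to 1 for RGS5. Whole libraries gave 0 genes without replicate 2 or replicate 3 (2088 and 2273 at an unadjusted p below 0.05 by edgeR). A lone library left in a group is assumed to vary like the others.

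Directions changed as follows, none of them a call in the main test. Age in whole libraries, TPM2: -0.376 to 0.813 over the libraries left out, below 0 without replicate 1 of 6 months. Interaction: TPM2 -0.006 to 0.839, below 0 without replicate 2 of 6 months; without PPP1R14A, ACTA2 -0.429, TAGLN -0.007 and TPM2 -0.629. RGS5, gate of 3: ACTA2 -0.455, MYH11 -0.306, TAGLN -0.868, TPM2 -0.501; no replicate block: ACTA2 -0.102, TAGLN -0.576, TPM2 -0.292; without PPP1R14A: ACTA2 -0.48, MYH11 -0.187, TAGLN -0.866, TPM2 -0.435; TAGLN -0.045 with 3 RGS5 UMIs, and over the libraries left out -0.247 (without replicate 1) to 0.405, below 0 also without replicates 2 and 4; TPM2 -0.043 (without replicate 1) to 0.552. The cause was not tested. At these depths the low counts of ACTA1, CNN1 and RERGL at 6 months limit any fold.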
